A study of Oryza sativa with 12 samples.

Results

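The 55 probe sets described here were those whose signal lay far below both parents in the roots of a rice F1 hybrid, out of 57258 rice probe sets on the array (0.0961%). A probe set was taken when the lowest of the 4 parental root arrays exceeded the higher of the 2 F1 root arrays by at least 1.5 on the scale log2(signal + 16). The condition was met by 63 probe sets, and 8 of them, from 7 genes already known for oxygen, nitrogen, phosphate or copper handling, were left out by name (NSHB1, NSHB2, PDC, DUR3, NRT2.3, Pht1;2 and COPT2). The members were thus chosen by their root signals, and their root difference from the parents is given as a description without a test. All 55 passed the filter on low signals that was used for the other comparisons, which kept 42974 probe sets, and each passed through at least 1 group in which it was high.

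The parents were the rice cultivars C bao and Jamaica, and the hybrid was the F1 between them, a cross the series title describes as showing hybrid weakness. RNA of each came from leaves at 4 weeks and from roots at 7 days, with 2 arrays for each of the 6 combinations of cultivar and tissue, 12 arrays in all. No treatment, mutation or transgene is named in the labels for any group, and the direction of the cross is not given in the sources used here. Leaf and root plants differed in age, so tissue and age cannot be told apart. The labels do not say whether the 2 arrays of a group came from separate plants or pools of plants, so p-values measure the spread between these arrays, which may be technical.

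In an F1 hybrid each parental genome contributes a copy of most genes, and a level between the parents is the additive baseline. A level outside both parents is called transgressive. Seedling roots express many genes that leaves use little, among them genes for uptake of ions and water and for the cell wall barriers of the inner cell layers, such as the Casparian strip, a band that blocks flow between cells of the endodermis. In whole-tissue RNA, fewer cells of a type and less RNA per cell cannot be told apart.

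Of the 55 members, 20 are paired with a gene in the probe annotation (36.4%, against 39.2% of all probe sets) and 35 have no gene in that table. The 20 probe sets stand for 19 genes, each annotated as protein coding. They lie on 9 chromosomes, and the closest pair, LOC107278728 and LOC4337274, has 23 annotated genes between its members, so the genes were not adjacent. CASPL1D1 (LOC4343098), a member of the CASP-like membrane protein family named after the proteins that organise the Casparian strip, was the 1 gene with an informative name. The others are given below by probe set or locus identifier, with no role assigned, and were chosen for mention after their values were seen. Probe sets whose suffix marks a probe set shared by several transcripts, _s_at, made up 9 members (16.4%, against 4.94% of all), and their signal may come from more than 1 gene.

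The root markers used to check the tissue were clearly present. Of 20 root marker genes, 11 were found in the probe annotation, which gives no gene for many probe sets. Their mean log2 level was 11.47 to 11.83 in the parental roots and 11.26 to 11.41 in the F1 roots, against 7.62 to 8.96 in leaves. The marker SCR1 was not higher in roots, with signals of 78.7 to 144.5 in roots and 132.4 to 233.2 in leaves. None of the 11 lay below the low-signal threshold of log2 5.59, a signal of 32.2, in any root array. This threshold is the mean 40th percentile of the arrays and not a limit of detection. The 12 markers of dividing cells were at 9.28 to 9.86 in parental roots and 9.94 to 10.03 in F1 roots. A list of 7 seed and drying-tissue markers differed far more, with summed signals of 810.2 to 2836.5 in parental roots and 127146 to 139658 in F1 roots. The part of these differences in the lower levels of the 55 members was not tested.

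The gap between the lowest parental and the higher F1 root array had a median of 1.82 and ranged from 1.51 to 5.83 on the log2 scale. It was at least 2 in 16 members, at least 3 in 5 and at least 4 in 2. The fitted difference between the F1 and the mean of both parents in root had a median of -2.44, with a range from -6.28 to -1.73, while the median over all kept probe sets was 0.12. Scaling moved that baseline, to -0.01 with quantile scaling and to -0.13 with each array centred on its median, where the members' medians were -2.60 and -2.69. Every array had been scaled by the authors to about the same trimmed mean, so a level is relative to the rest of its array.

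The widest gap was at OsAffx.30449.1.S1_at, which has no gene in the table. Its signal was 3384.5 and 5503.6 in C bao roots, 2983 and 2622 in Jamaica roots, and 27.5 and 30.3 in F1 roots. Both F1 arrays lay under the low-signal threshold, where values have little precision. In leaves it read between 2.2 and 25.9 in all 6 arrays, so the 4 parental root arrays were the 4 of the 12 in which this transcript was above the threshold. The second widest gap was at Os.18378.1.S1_s_at, with signals of 1758.3 and 3075.6 in C bao roots, 1763.3 and 1414.9 in Jamaica roots, and 53.9 and 41.5 in F1 roots. Here a weak signal above the threshold was left in both F1 root arrays.

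The next 2 gaps belonged to a pair of probe sets whose identifiers share a stem, so they may read the same transcript and are not independent. OsAffx.2917.1.S1_s_at read 2016.6 and 2961 in C bao roots, 3275.5 and 3700.6 in Jamaica roots, and 154.6 and 160.9 in F1 roots. OsAffx.2917.1.S1_at was dimmer, with 930.9 and 1480.2 in C bao roots, 1679.3 and 1829.9 in Jamaica roots, and 96.6 and 58 in F1 roots. Both probe sets thus gave the same order, with the F1 lowest and Jamaica highest. OsAffx.4172.1.S1_at had the fifth gap, with 3717.9 and 4927.2 in C bao roots, 2064.6 and 2591.9 in Jamaica roots, and 241.4 and 223.7 in F1 roots, and in this case C bao was the higher parent.

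**Figure D1:**
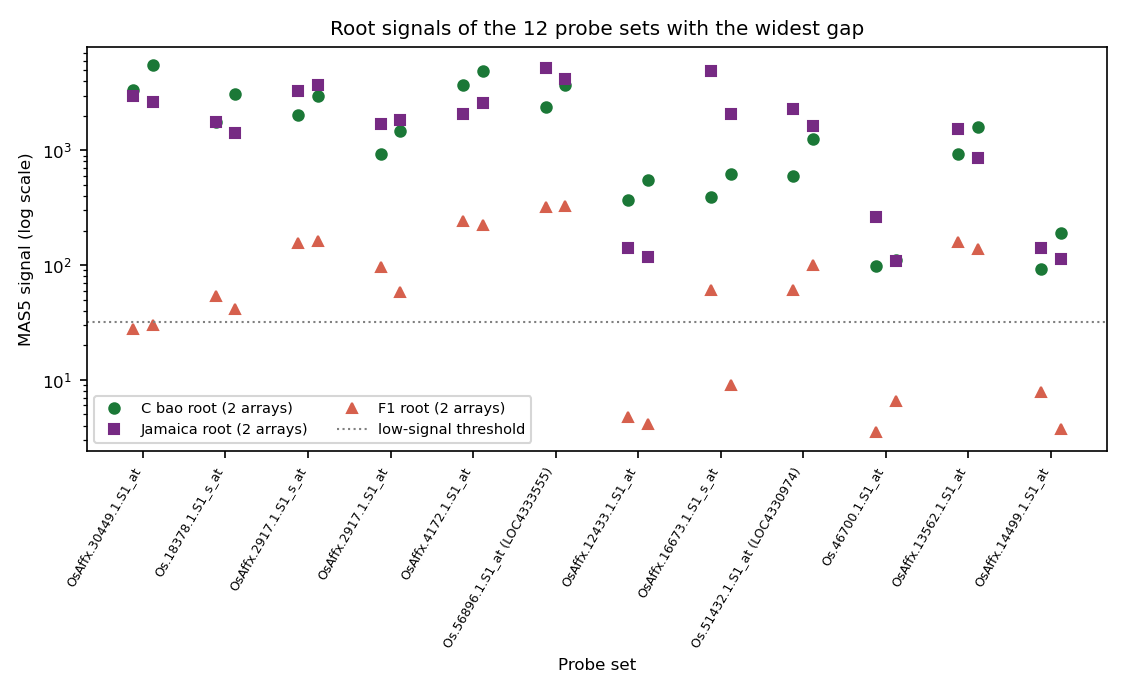
MAS5 signal (log axis) in the 6 root arrays for the 12 members with the widest gaps, with a point per array and groups marked by colour and shape. The dotted line is the low-signal threshold of 32.2. For OsAffx.30449.1.S1_at the 4 parental arrays lie between 2622 and 5503.6 and the F1 arrays at 27.5 and 30.3, and in every probe set shown the F1 points lie below all parental points.

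A hybrid signal below the low-signal threshold was the less common form. Both F1 root arrays lay below it in 10 of the 55 members, 1 array in 3 members and neither in 42. The mean F1 root signal ranged from 3.2 to 2977 with a median of 164, and it was at least 500 in 16 members and at least 1000 in 6. Parental root means ranged from 60.8 to 14273 with a median of 1480, and 35 of the 55 were at 1000 or more. Most members were thus bright in parental roots and stayed above the low-signal threshold, at a lower level, in the hybrid. These root levels are the ones that chose the members, and the added 16 narrows the gap of dim probe sets. The brightness of the members is therefore a description, set in part by the choice.

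The brightest member was OsAffx.24125.1.S1_s_at, annotated to LOC4328360, with 13924.3 and 20377.7 in C bao roots, 11626 and 11163.9 in Jamaica roots, and 2190 and 3764.9 in F1 roots. Its unnamed partner OsAffx.24125.1.S1_at, which shares the stem, read 11107.3 and 16257.2, 10476.8 and 8694, and 1332.5 and 2375 in the same order. In both, the hybrid kept a signal above 1000 while the groups did not overlap. OsAffx.21616.1.S1_s_at was as bright, with 12936.7 and 15295 in C bao roots, 10616.1 and 11164.3 in Jamaica roots, and 2962 and 2942.7 in F1 roots.

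LOC4324330 was the 1 gene represented by 2 members. Os.27169.1.S1_s_at read 8995 and 13465.7 in C bao roots, 11024.2 and 9484.9 in Jamaica roots, and 1891.5 and 3092.3 in F1 roots. Os.56048.1.S1_s_at read 3550.4 and 5328.8, 4211.3 and 3589.4, and 758.5 and 928.4 in the same groups. The parents overlapped in both probe sets and the F1 lay below them in both. LOC4327679 gave a less even picture: its member Os.32078.1.S1_at had a gap of 1.59, but its other probe set, Os.25546.1.S1_at, was dim and had a gap of 0.50, with 184.2 and 279.9 in C bao roots, 75.5 and 79.9 in Jamaica roots, and 48.8 and 40.1 in F1 roots.

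At the threshold itself, the members with the narrowest gaps were OsAffx.12865.1.S1_at and Os.27169.1.S1_s_at, both at 1.54, and Os.34873.1.S1_at (LOC4344168) at 1.51. The nearest probe sets outside it were Os.56946.1.S1_at (LOC4350217) at 1.4993, OsAffx.28337.1.S1_at (LOC4342528) at 1.49 and Os.17577.1.S2_at (LOC4346934) at 1.49. No break in the values separated members from non-members, so the number 55 is set by the threshold. It was 34 with a pseudocount of 64, and each of those 34 was among the 55, while a pseudocount of 1 gave 187 and centring on the median gave 116. Leaving out C bao root replicate 1 gave 99 and leaving out F1 root replicate 1 or 2 gave 132 or 174.

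**Figure D2:**
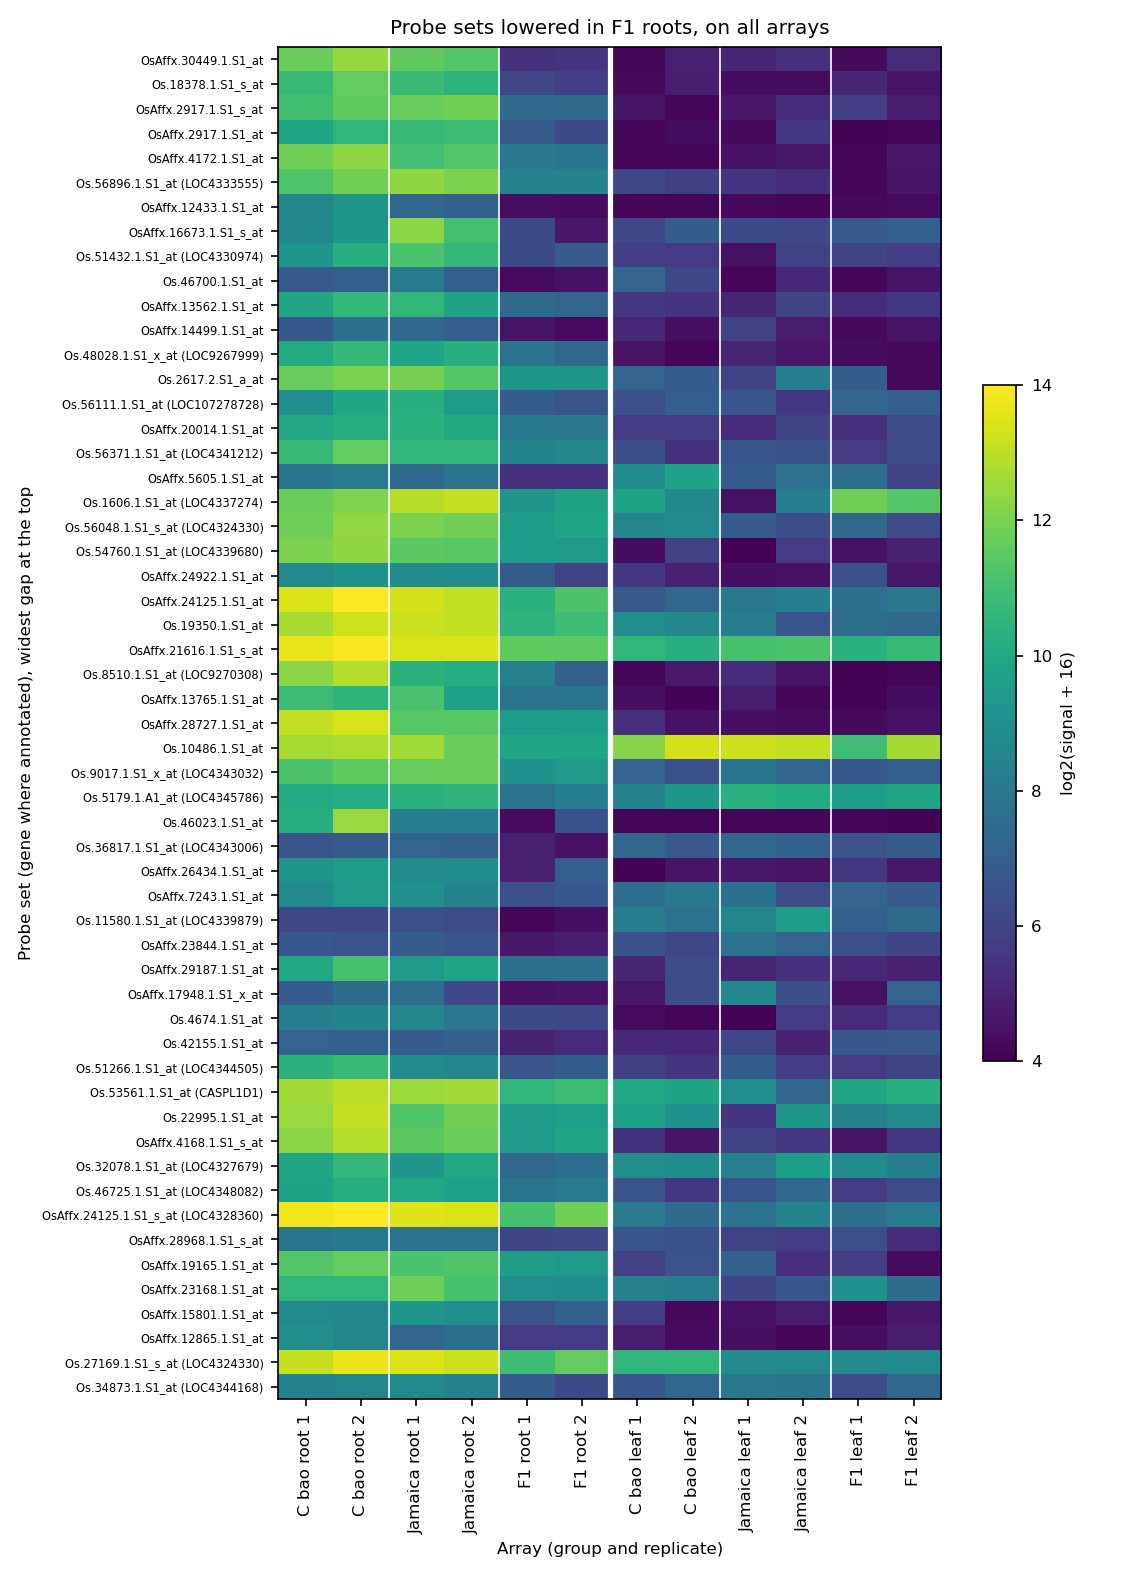
Each row is 1 of the 55 members, ordered by gap, and each column 1 of the 12 arrays, with colour giving log2(signal + 16). The F1 root columns are darker, which marks lower values, than the parental root columns in every row. In 23 members the mean parental leaf level is below the low-signal threshold.

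The members were mostly root-preferring in the parents, a property the choice of members did not use as far as leaves are concerned. All 4 parental root arrays exceeded all 4 parental leaf arrays in 46 of the 55 members (83.6%), against 17% of kept probe sets. The parental root minus leaf difference had a median of 4.08 on the log2 scale, with a range from -2.25 to 7.68, and the median over kept probe sets was -0.03. Since a member had to be high in parental roots, the leaf level was also set beside that of other bright root transcripts. Among the 28 members at or above the members' median root level, 11 (39.3%) had a parental leaf mean below the low-signal threshold. The share was 1.51% of the 7613 probe sets that were as bright in parental roots, the 28 members included.

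The root preference was narrower in the hybrid. The F1 root minus leaf difference had a median of 1.004 over the members and 0.16 over kept probe sets. Both F1 root arrays exceeded both F1 leaf arrays in 35 members, where the share of all kept probe sets is 37%, both F1 leaf arrays exceeded both F1 root arrays in 12, where it is 27%, and the arrays overlapped in 8. The low F1 root values that enter this difference are those that chose the members.

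Other root-preferring transcripts were also lower in the F1 roots, by less. Of 452 probe sets outside the 55 with a parental root minus leaf difference of at least 4.08, both F1 root arrays lay below all 4 parental root arrays in 232 (51.3%), against 11.1% of kept probe sets. Their median F1 difference from the mean of both parents was -0.63 on the log2 scale, against 0.12 over kept probe sets. The same parental root arrays chose these 452 and entered their F1 difference, so part of it can follow from the choice. How large that part is was not tested. The probe sets left out by name were not removed from the 452.

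**Figure D3:**
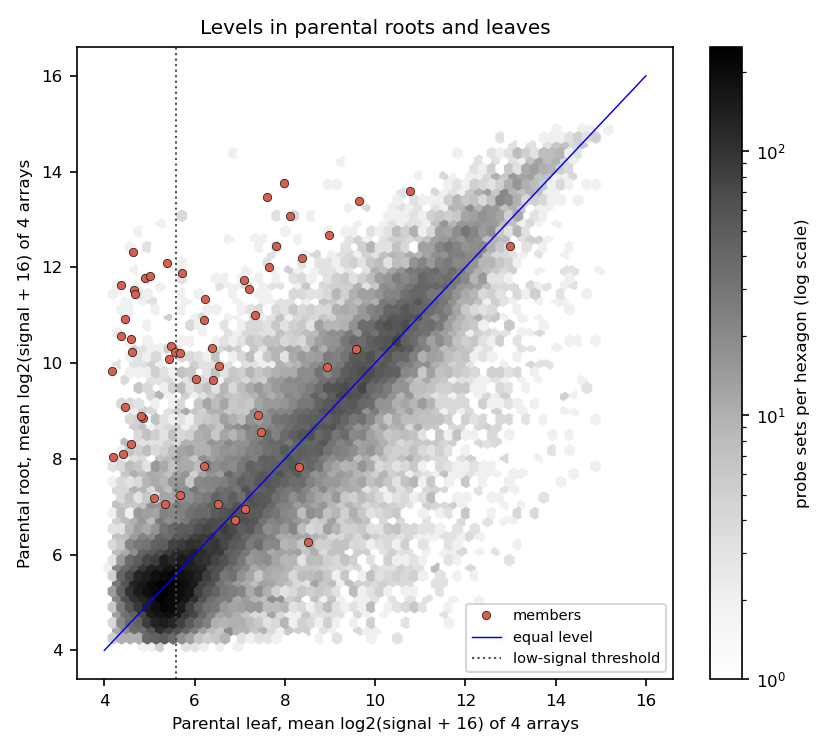
Mean log2(signal + 16) of the 4 parental leaf arrays (horizontal axis) against that of the 4 parental root arrays (vertical axis), with the 55 members as red points over all kept probe sets as grey hexagons shaded by count on a log scale. The blue line marks equal levels and the dotted line the threshold of 5.59; the members stand a median of 4.08 above the line, and 23 lie left of the threshold.

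The exceptions to root preference were few. In 8 members the parental leaf and root arrays overlapped, and in 1 member all 4 parental leaf arrays exceeded all 4 parental root arrays, against 17% of kept probe sets. This was Os.11580.1.S1_at (LOC4339879), with 53.4 and 54.6 in C bao roots, 71.7 and 63.3 in Jamaica roots, and 1.9 and 4.5 in F1 roots. In leaves it read 274.4 and 195 in C bao, 361 and 736.7 in Jamaica, and 119.3 and 159.3 in the F1. The hybrid was therefore the lowest group in both tissues, and in leaf it was 1.79 below Jamaica on the log2 scale (SE 0.402, limma adjusted p = 0.0311). That call held in 9 of 22 alternatives, with adjusted p up to 0.145, and was lost when any root array was left out. Os.10486.1.S1_at was bright in both tissues, with 6602.5 and 6923.8 in C bao roots, 6255.6 and 3355 in Jamaica roots, and 948.9 in each F1 root array. Its leaf arrays read 4691.2 and 10510.4 in C bao, 9750.5 and 8750.8 in Jamaica, and 1920.5 and 6390.5 in the F1, so in leaf the F1 lay below Jamaica without overlap, and C bao overlapped both.

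The members shifted together between the 2 C bao root arrays. C bao root replicate 2 read higher than replicate 1 in 50 of the 55 members (90.9%), with a median difference of 0.40 on the log2 scale, against 48.2% of kept probe sets with a median of -0.02. Among the 7613 probe sets as bright in parental roots the share was 51.4%, and among 480 root-preferring ones it was 67.9%. Members were not removed from these 2 sets. Among the 675 probe sets outside the 55 that limma called lower in F1 roots it was 84.6%, and among the 1449 called higher it was 46.8%. Transcripts low in the hybrid thus also tended to be the lower ones in C bao root replicate 1.

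Jamaica root arrays differed the other way and by less. Replicate 2 was higher in 20 of the 55 members (36.4%, median -0.16), against 50.6% of kept probe sets, and in the F1 roots replicate 2 was higher in 34 (61.8%, against 49.8%). The 675 probe sets outside the 55 that limma called lower in F1 roots had similar shares, 33.6% in Jamaica and 65.8% in F1 roots. C bao root replicate 1 was the lowest parental array in 19 members, Jamaica replicate 2 in 20, Jamaica replicate 1 in 14 and C bao replicate 2 in 2. Root markers stood at a mean of 11.47 in C bao root replicate 1 and 11.48 in replicate 2, with summed signals of 100237 and 105958. The dividing-cell list stood at 9.68 in C bao root replicate 1 and 9.28 in replicate 2, and the seed and drying-tissue list at 7.64 and 7.10. Their part in the shared difference was not tested.

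**Figure D4:**
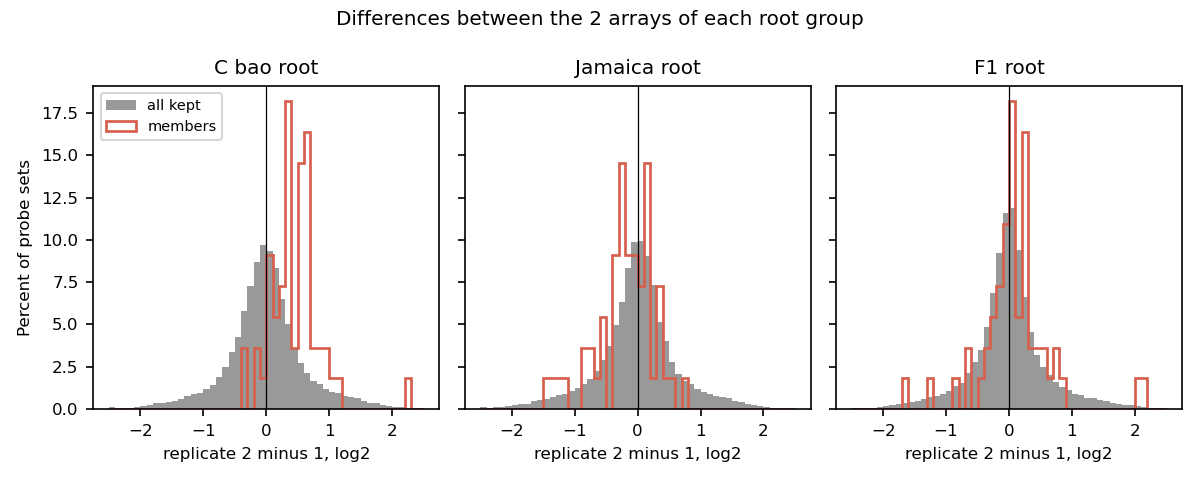
Percent of probe sets (vertical axis) by log2 difference between replicate 2 and replicate 1 (horizontal axis) in C bao, Jamaica and F1 roots, with kept probe sets in grey and the 55 members outlined in red. The members are shifted upward in C bao (median 0.40) and slightly downward in Jamaica (median -0.16), while the kept probe sets centre near 0.

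The parents also differed from each other in root in some members. The 4 parental root arrays entered the choice of members, which required all of them to be high, so these values are a description and nothing is read from them against the background. Both C bao arrays exceeded both Jamaica arrays in 22 members, where the share of kept probe sets is 24%, both Jamaica arrays exceeded both C bao arrays in 12, where it is 27.4%, and the parents overlapped in 21. In the fit across all probe sets 6 members lay past the threshold, where 4.7% of kept probe sets did, 5 of them higher in C bao (background 2.39%) and 1 higher in Jamaica (background 2.31%). The F1 was below the lower parent in each, as the choice of members requires.

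The member higher in Jamaica was OsAffx.16673.1.S1_s_at, with 394.3 and 619.4 in C bao roots, 4938.4 and 2065.1 in Jamaica roots, and 60.6 and 9.1 in F1 roots. The C bao minus Jamaica difference was -2.65 on the log2 scale (SE 0.560). The groups did not overlap, but the 2 Jamaica arrays lay over 1 log2 unit apart. OsAffx.28727.1.S1_at had close replicates, with 8561.9 and 10880.3 in C bao roots, 2709.4 and 2669.7 in Jamaica roots, and 703.2 and 744.5 in F1 roots. It was 1.84 higher in C bao (SE 0.321).

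Os.8510.1.S1_at (LOC9270308) had signals of 4928.1 and 7508.7 in C bao roots, 1349.4 and 1167.5 in Jamaica roots, and 317.7 and 122.2 in F1 roots, a C bao excess of 2.26 (SE 0.459). Os.51266.1.S1_at (LOC4344505) had 1377.9 and 1748.3, 434.7 and 376.7, and 82.6 and 107.9 in the same groups, an excess of 1.90 (SE 0.401). These 2 transcripts formed 3 steps, from C bao through Jamaica to the hybrid, without overlap. OsAffx.12433.1.S1_at was also higher in C bao, by 1.69 (SE 0.380), and lay under the low-signal threshold in the hybrid, at 4.7 and 4.1. Os.46023.1.S1_at was less even, with 1200.1 and 5615.1 in C bao roots against 306.9 and 299.9 in Jamaica roots and 3.8 and 74.9 in F1 roots. Its parental difference was 3.03 (SE 0.758). The count of 6 rested on few arrays: without C bao root replicate 2 or without Jamaica root replicate 1 it was 0, without Jamaica root replicate 2 it was 1, and without C bao root replicate 1 it was 2.

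Leaf values had no part in the choice of members, so they ask whether the same transcripts also stood apart in hybrid leaves. The limma spread was estimated from all 12 arrays, among them the root arrays that chose the members. The p-values of all leaf comparisons are therefore not independent of that choice. The 2 F1 leaf arrays themselves differed widely: dividing-cell markers were at 9.48 in replicate 1 and 5.77 in replicate 2, and the summed drying-tissue signal was 1714.4 and 47687, against 744.4 to 3030.5 in parental leaves. Their part in the F1 leaf results was not tested. A leaf group mean reached the low-signal threshold in 36 of the 55. All 4 parental leaf arrays read lower than both F1 leaf arrays in 2 members, against 6.12% of kept probe sets, and higher than both in 4 members, against 7.11%. By limma, 2 members passed an adjusted p of 0.05 for F1 leaf against the mean of both parents, against 1.21% of kept probe sets, 1 of them higher (background 0.982%) and 1 lower (background 0.233%). The remaining 53 did not pass, and 12 members (21.8%) had an unadjusted p under 0.05, against 12.4% of kept probe sets. These shares were not tested against the background, and many of the members were dim in leaves. With leaf arrays alone, where 36 members were kept, 0 members passed. Leaving out any root array, or either C bao leaf array, left 0 of these 2 calls.

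The member that rose in F1 leaves was Os.1606.1.S1_at (LOC4337274). In leaves it read 886.6 and 393.6 in C bao, 5.6 and 303.4 in Jamaica, and 3666.8 and 2627.2 in the F1. In roots it read 3332.9 and 4276 in C bao, 7702.8 and 8820.1 in Jamaica, and 578.2 and 843.1 in the F1. The hybrid thus had the highest leaf values and the lowest root values. The F1 leaf excess over the mean of both parents was 3.80 on the log2 scale (SE 0.789, limma adjusted p = 0.0499), and the excess over Jamaica leaves was 5.23 (SE 0.911, limma adjusted p = 0.00935). The mid-parent call held in 4 of 22 alternatives, with adjusted p between 0.000203 and 0.351, and the call against Jamaica in 21 of 22. Jamaica leaf replicate 1, at 5.6, stood far below its partner.

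The member that fell in F1 leaves was Os.56896.1.S1_at (LOC4333555), which also had the sixth widest root gap. In roots it read 2391.9 and 3725.5 in C bao, 5196.9 and 4183.8 in Jamaica, and 318.7 and 326.8 in the F1. In leaves it was dim, with 54.4 and 43.1 in C bao, 29.7 and 23.8 in Jamaica, and 1.7 and 7.9 in the F1. The F1 leaf arrays were below the threshold and below all parental leaf arrays, with a log2 difference of -1.35 from the mean of both parents (SE 0.265, limma adjusted p = 0.0374). That call held in 7 of 22 alternatives, with adjusted p between 0.0147 and 0.359. With a pseudocount of 64 the difference was -0.56 and did not pass.

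Against each parent alone, which share the F1 leaf arrays, 3 members passed in F1 leaf against C bao leaf, all lower, where 1.15% of kept probe sets passed (0.889% higher and 0.263% lower). In F1 leaf against Jamaica leaf 4 members passed, 3 higher and 1 lower, where 5.22% of kept probe sets passed (3.34% higher and 1.88% lower). The lower ones against C bao were Os.56896.1.S1_at and both probe sets of LOC4324330. For Os.27169.1.S1_s_at leaf signals were 1486.9 and 1525.4 in C bao, 399.9 and 418.2 in Jamaica, and 399.4 and 422 in the F1. The hybrid and Jamaica overlapped in leaf, and C bao stood apart. The F1 minus C bao difference was -1.84 (SE 0.247, limma adjusted p = 0.00438). The count of 3 against C bao became 0 without C bao leaf replicate 2, 1 without C bao leaf replicate 1, C bao root replicate 2 or any Jamaica or F1 root array, and 5 without either Jamaica leaf array or without F1 leaf replicate 1. The count of 4 against Jamaica became 2 without C bao leaf replicate 1, Jamaica root replicate 1 or any C bao or F1 root array, and 9 without F1 leaf replicate 2.

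Os.56048.1.S1_s_at, the other probe set of LOC4324330, read 367.5 and 406.8 in C bao leaves, 103 and 68.5 in Jamaica leaves, and 148.7 and 61.9 in F1 leaves, an F1 minus C bao difference of -1.83 (SE 0.348, limma adjusted p = 0.0328). That call held in 9 of 22 alternatives, and the one of the first probe set in 21. Both probe sets of this gene therefore showed the same leaf pattern, with the F1 overlapping Jamaica, although in roots the parents overlapped and the F1 lay below both. The F1 minus Jamaica difference in leaf was 0.01 (SE 0.247) for the first and 0.18 (SE 0.348) for the second probe set, with adjusted p of 0.993 and 0.821 in limma. Differences of the order of these SEs would not have been seen.

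**Figure D5:**
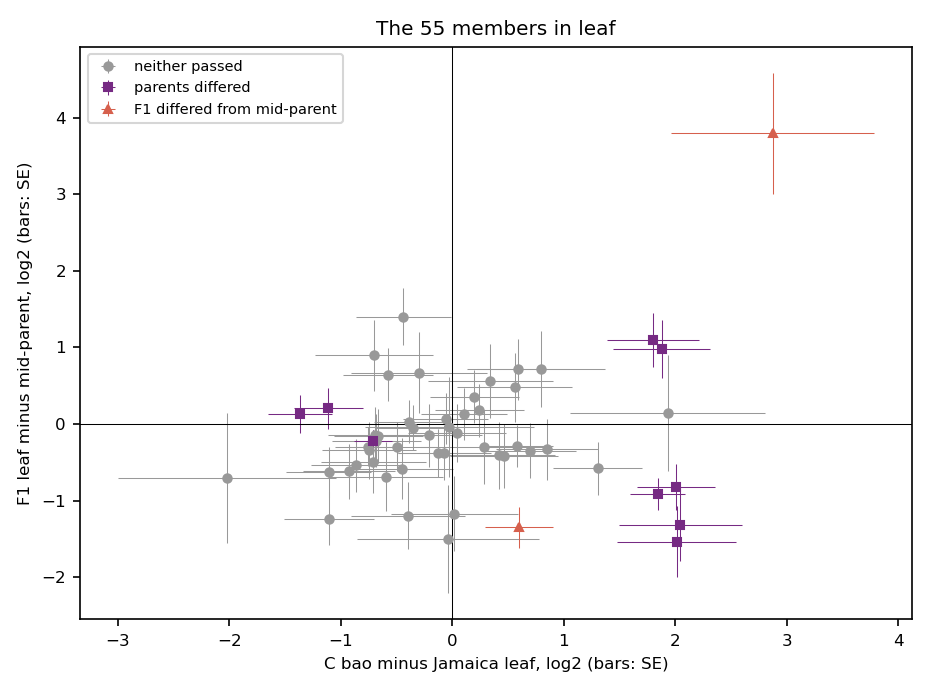
C bao minus Jamaica leaf difference (horizontal axis, log2) against F1 leaf minus the mean of both parents (vertical axis, log2) for the 55 members, with bars for the limma standard error. The triangles are the 2 members that passed on the vertical axis, LOC4337274 at 3.80 and LOC4333555 at -1.35, and the squares are the 9 that passed on the horizontal axis.

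C bao and Jamaica leaves differed in 9 members (6 higher and 3 lower in C bao), against 11.9% of kept probe sets (7.46% higher and 4.39% lower). The count was 2 without C bao leaf replicate 1, 3 without C bao leaf replicate 2 and 4 without Jamaica leaf replicate 1. Both probe sets of LOC4324330 were among those higher in C bao, by 1.84 (SE 0.247, limma adjusted p = 0.00102) and 2.01 (SE 0.348, limma adjusted p = 0.00485), and the first held in 22 of 22 alternatives. The others higher in C bao were CASPL1D1, OsAffx.23168.1.S1_at, OsAffx.5605.1.S1_at and Os.46700.1.S1_at, by 1.80 to 2.04. The 3 lower in C bao were Os.5179.1.A1_at (LOC4345786) at -1.36, OsAffx.24125.1.S1_at at -1.11 and OsAffx.21616.1.S1_s_at at -0.71. The calls of OsAffx.5605.1.S1_at, Os.46700.1.S1_at and OsAffx.24125.1.S1_at held in 8, 9 and 9 of 22 alternatives, and those of the other 4 beside LOC4324330 in 15 to 18. The other 46 members did not pass. The 2 Jamaica leaf arrays were over 1 log2 unit apart in 19 members, more than in any other group, which ranged from 3 to 11, and dividing-cell markers were at 5.57 and 6.71 in those arrays against 9.02 and 9.40 in C bao leaves.

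For LOC4324330 the parental root values overlapped in both probe sets, with C bao minus Jamaica differences of 0.11 (SE 0.247) and 0.16 (SE 0.348). Whether the parental difference differs between leaf and root was not tested, since root values chose the members.

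CASPL1D1 read 6321.6 and 8074.6 in C bao roots, 5742 and 6302.1 in Jamaica roots, and 1471.6 and 1812.7 in F1 roots. C bao lay narrowly above Jamaica without overlap, and the hybrid lay below both, with a gap of 1.65. In leaves it was lower than in parental roots, with 999.7 and 856.8 in C bao, 463.6 and 136.8 in Jamaica, and 942.9 and 1205.8 in the F1. F1 leaves overlapped C bao and lay above Jamaica, by 1.999 on the log2 scale (SE 0.410, limma adjusted p = 0.0211). That call did not pass with leaf arrays alone (limma adjusted p = 0.169) or without the trend (limma adjusted p = 0.0571). The excess over Jamaica was 2.82 without Jamaica leaf replicate 1 and 1.17 without replicate 2. The F1 leaf difference from the mean of both parents was 1.10 (SE 0.355) and did not pass (limma adjusted p = 0.219). C bao leaves were 1.80 above Jamaica leaves (SE 0.410, limma adjusted p = 0.0190). Hybrid CASPL1D1 thus stood below both parents in root and near the higher parent in leaf.

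The other genes of the endodermis and suberin list, which by name are CASP-like genes apart from KCS20, of a family that elongates long-chain fatty acids, were set beside it. Of the 21 besides CASPL1D1, 1 fell in F1 roots against the mean of both parents by limma, 0 rose and 20 did not pass. Over kept probe sets, with or without a gene, 5.06% passed (1.69% fell and 3.37% rose). The one that fell was CASPL4B4, with 2117.6 and 2568.4 in C bao roots, 2505.3 and 2255.6 in Jamaica roots, and 1078.9 and 1269.3 in F1 roots, a difference of -0.999 (SE 0.200, limma adjusted p = 0.0162). CASPL1C1 at -1.45 (limma adjusted p = 0.0940) and CASPL1U3 at -1.06 (limma adjusted p = 0.0971) did not pass, nor did CASP1, the rice gene named for the Casparian strip proteins, at -0.49 (limma adjusted p = 0.545). The median over all 22 genes of the list was -0.15, but this includes CASPL1D1, which was chosen for its low F1 root values. The middle value of the other 21 was -0.096 (CASPL5B2), against 0.12 over all kept probe sets.

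Named genes of other functions were counted to place the members. The members include none of them, but lists were matched by symbol. Of the members, 35 have no gene in the annotation, and 1 of their 19 genes has an informative name. The choice of members also left out some transporters by name. The absence of members from these lists therefore says nothing on their functions. In 20 further lists of transporter, cell wall, hormone, drying-related and regulatory genes with at least 5 genes each, 360 different genes were measured. Of these 13 fell (3.61%), 40 rose (11.1%) and 307 did not pass, with a median of 0.02. Over kept probe sets 1.69% fell and 3.37% rose. The list shares count annotated genes and the background counts probe sets with or without a gene, so the 2 are not like for like. The list of 8 dehydration genes, with a median of 5.88, gave 6 of the genes that rose. Among uptake genes the potassium transporter HAK1 fell, with 14433.5 and 15443.3 in C bao roots, 15500.6 and 15580.5 in Jamaica roots, and 6773.3 and 6614.9 in F1 roots, a difference of -1.18 (SE 0.189, limma adjusted p = 0.00463). Another potassium transporter, HAK17, rose by 1.84 (SE 0.343, limma adjusted p = 0.0111), so the list of 24 potassium and sodium transporters moved both ways, with 2 that fell, 2 that rose and 20 that did not pass. A shorter list, outside those 20, held 3 silicon transporters, of which 1 fell and 2 did not pass. The one that fell was Lsi2, the silicon efflux transporter of rice roots, at 12656.1 and 14814.8 in C bao roots, 19356.2 and 20214.8 in Jamaica roots, and 6034.5 and 7477.4 in F1 roots, a difference of -1.29 (SE 0.187, limma adjusted p = 0.00269). Of 19 aquaporins 0 fell by limma, 2 rose and 17 did not pass. All these calls are against the mean of both parents, so a gene that rose or fell can still lie within the parents. The aquaporin PIP2;4 rose, with 5289.7 and 6103.4 in F1 roots, but overlapped C bao roots at 5563.1 and 5668.7. Its Jamaica roots read 702.3 and 771.2. The other that rose, TIP3, lay above both parents.

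Across all the lists, 16 probe sets were called lower and 44 higher in F1 roots as scaled, but 48 lower and 32 higher with each array centred on its median, so the balance of directions in these lists depends on the scaling. The 60 calls became 22 without F1 root replicate 1, 24 without F1 root replicate 2, and 92 without either F1 leaf array.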

How the data were processed

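Intensity values of 12 Affymetrix rice arrays were used as the authors deposited them, on a linear scale (0.1 to 57846). Per the submitters' processing notes they came from MAS5, and per the values each array had been scaled to a 2% trimmed mean of about 500. Of 57381 probe sets, 123 controls were left out. The log2(signal + 16) was taken, and 42974 probe sets (75.05%) were kept whose mean exceeded log2 5.59, the mean 40th percentile of the arrays, in at least 1 of 6 groups. Detection calls were not used here, and the number of arrays limits the precision.

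The 12 arrays entered a single limma 3.58.1 model in R 4.3.3 with a mean for each of the 6 groups (trend, 6 residual and 4.58 prior degrees of freedom), adjusting over all kept probe sets by Benjamini and Hochberg at 0.05. Tables used Python 3.11.15. The fit was tested on simulated data. The members and gene lists were chosen with earlier results of these data known. List genes were matched by gene symbol, and the matching was narrowed to the primary symbol after mismatches were seen. Named genes were those with an informative name among the members, the 3 probe sets on each side of the threshold, and up to 2 called genes each way per list. Other probe sets were chosen after their values were seen. Left out by name were 8 probe sets. The exclusions could be applied only where the annotation gives a gene. Gene order came from the RefSeq gene table. No sequences are shown.

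Replicate numbers were not used to pair arrays across groups in the main fit. The correlation of deviations of same-numbered arrays over all kept probe sets ran from -0.17 to 0.08 over 15 pairs of groups. Such values cannot show whether same-numbered arrays were grown or handled together, which the labels do not say. Alternatives were other scalings, pseudocounts, filters, fits and thresholds, and leaving out each array.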

Additional observations from a re-analysis of the deposited data

Results flagged for a closer look

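For Os.1606.1.S1_at (LOC4337274) all 4 parental leaf arrays read lower than both F1 leaf arrays, with an F1 excess of 3.80 on the log2 scale over the mean of both parents, while both F1 root arrays lay below all parental root arrays. The difference between the tissues was not tested, since root values chose the member. Os.42155.1.S1_at showed the same opposite pattern, with 88.1 and 93.9 in F1 leaves against 15.8 to 53.8 in parental leaves and 16.1 and 21.6 in F1 roots against 104.1 to 126.2 in parental roots. Its leaf difference was 1.40 (limma adjusted p = 0.127), and the difference between tissues was not tested.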

How the results depend on the processing

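The number of members, 55, became 187 with a pseudocount of 1, 34 with 64 and 116 with median centring, and ran from 63 to 174 when a root array was left out. For F1 leaf against the mean of both parents, 2 members were called in the fit as reported, 1 with a pseudocount of 1 or of 64, without the filter or with the filter at the 60th percentile, and 0 without the trend, with leaf arrays alone, with a replicate block and at an adjusted p of 0.01. Leaving out an array gave 0 to 3. For C bao against Jamaica leaf, 9 became 1 with leaf arrays alone and 2 at 0.01, and 2 to 10 with an array left out. For C bao against Jamaica root, whose arrays also chose the members, 6 became 0 with a pseudocount of 1, 13 with root arrays alone and 1 at 0.01, and 0 to 6 with an array left out. For F1 leaf against C bao leaf, 3 became 1 with leaf arrays alone, with a replicate block and at 0.01, and 0 to 5 with an array left out. For F1 leaf against Jamaica leaf, 4 became 2 without the trend, 0 with leaf arrays alone and 1 at 0.01, and 2 to 9 with an array left out. In the gene lists, 60 probe sets called in F1 root became 145 with root arrays alone and 34 at 0.01, and 22 to 92 with an array left out. The replicate block gave 8, 6 and 4 calls for C bao against Jamaica leaf, C bao against Jamaica root and F1 leaf against Jamaica leaf. None of the members called in a leaf comparison changed direction there under these alternatives, which were not run on single members outside those calls. The causes were not tested. Fits of 1 tissue alone gave no value for the other tissue. With 2 arrays a group, dim transcripts near the threshold have little precision.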
